A study of Mus musculus with 6 samples.

Results

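Transcripts of 10 insulin signalling genes were compared between mice of 2 genotypes, WT and TRIM24 C52/55A, on a high-fat diet (HFD), with 3 livers of each. The genes were *Insr*, *Irs1*, *Irs2*, *Pik3r1*, *Pik3ca*, *Akt1*, *Akt2*, *Foxo1*, *Foxo3* and *Grb10*, taken by name from a list of pathway genes, and they are 10 of the 21528 genes that the tables of the 6 libraries list. All 10 were listed above 0 in every library, and all 10 passed the filter on low values. The mice were labelled C57BL/6 (the knockin was made on C57Bl/6J), were 5 months old, and had eaten, in both groups alike, an HFD for 3 months in which fat gave 60% of the calories. In the TRIM24 C52/55A mice, both copies of the endogenous *Trim24* gene carried alanine in place of Cys52 and Cys55 in the RING domain that gives TRIM24 its E3-ligase activity, and the WT mice were littermates. The homozygous mutants are called knockin mice here. The knockin was present in every cell of the body and not only in hepatocytes, and whole liver was sequenced, with 1 library per mouse. The paper gives its mice free access to food unless it states otherwise. The sources used here do not say whether these mice were fasted before the liver was taken.

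Insulin binds its receptor on hepatocytes, and the activated receptor phosphorylates the insulin receptor substrates IRS1 and IRS2. The substrates recruit the PI 3-kinase, which is made of a regulatory and a catalytic subunit, and the lipid it makes brings PKB (also known as Akt) to the membrane. PKB phosphorylates FOXO1 and FOXO3 and keeps them out of the nucleus, so that insulin lowers the genes these factors drive, among them those of glucose output and, in a feedback loop, *Irs2*. TRIM24 is itself a PKB substrate in the study, and the comparison asks whether transcripts of this pathway differ in a liver whose TRIM24 lacks ligase activity.

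Levels are FPKM, a unit that by definition scales fragments to transcript length and library size, so that levels of different genes can be set side by side. Summed FPKM were higher in every knockin library (673244 to 676791) than in any WT library (644619 to 648221). The total number of fragments is unknown. From the most common ratio of low values between libraries, relative depth ranged from 0.962 to 1.03, with WT replicate 1 set to 1. That ratio rested on 22 to 87 genes per library. Only ratios near 1 were searched, so a larger difference in depth could not have shown. *Trim24* had 5.45 ± 0.562 FPKM in WT and 6.31 ± 2.08 FPKM in knockin livers (SD, n = 3 each), which checks no label, since the mutation replaces codons within the gene. Of the hepatocyte markers, 5 of 6 were listed, all but *Alb*, and their summed FPKM was 12546 to 12938 in WT and 11971 to 14323 in knockin libraries. The sums overlapped between the groups for markers of Kupffer cells and macrophages (111 to 142 and 96.5 to 132 FPKM, 7 of 7 listed), of stellate cells (105 to 115 and 103 to 131 FPKM, 7 of 7) and of cholangiocytes (28.5 to 53.7 and 21.8 to 33.9 FPKM, 5 of 5). They overlapped also for markers of adipocytes (879 to 1006 and 502 to 1223 FPKM, 10 of 10), a sum made mostly of *Pck1*, which hepatocytes express, and without *Pck1* it was 41.9 to 54.9 and 12.9 to 77.4 FPKM. Among the adipocyte markers, *Cidec* (9.94 to 25.2 and 0.663 to 6.12 FPKM), *Plin4* (3.25 to 5.44 and 0.939 to 2.06 FPKM) and *Cfd* (3.10 to 8.62 and 0.112 to 2.54 FPKM) were lower in every knockin library than in any WT library. The same was so for 22.5% of all genes tested. The other adipocyte markers overlapped between the groups, among them *Fabp4* (13.2 to 16.9 and 6.55 to 45.5 FPKM) and *Lipe* (3.17 to 4.22 and 3.40 to 7.71 FPKM). The sums did not overlap for markers of lymphocytes (3.97 to 4.98 and 3.12 to 3.63 FPKM, 5 of 5) and of sinusoidal endothelium (88.4 to 93.3 and 79.4 to 87.2 FPKM, 6 of 6), but without *Lyve1* those of sinusoidal endothelium overlapped, at 80.0 to 88.3 and 78.4 to 84.3 FPKM. Knockin replicate 2 had the adipocyte genes *Adipoq*, *Plin1* and *Lep* at 4.55, 3.32 and 3.98 FPKM, while neither other knockin library listed them, and 7 of the 10 adipocyte markers were highest there. Of the 6 libraries it also had the highest sums of hepatocyte and stellate markers, and of the knockin libraries the highest sums of Kupffer cell and cholangiocyte markers. *Apoa1* was the largest part of its hepatocyte sum, at 8183 FPKM beside 5556 to 6552 FPKM in WT libraries. *Hnf4a* was also highest there, while *Ttr*, *Tat* and *Cps1* were highest in other libraries, so the sum mostly follows *Apoa1*.

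The 10 genes spanned a wide range of levels. *Akt2* was the most abundant, at 37.5 ± 1.94 FPKM in WT liver (SD, n = 3), and *Grb10* the least, at 0.612 ± 0.130 FPKM. In WT liver the order was *Akt2*, *Akt1*, *Insr*, *Pik3r1*, *Foxo3*, *Pik3ca*, *Foxo1*, *Irs2*, *Irs1* and *Grb10*. The ranges of the 3 WT libraries overlapped only between the neighbours *Pik3r1* and *Foxo3*, *Foxo3* and *Pik3ca*, and *Pik3ca* and *Foxo1*. Among genes that are not neighbours in that order the ranges did not overlap. In knockin liver the order was the same but for *Irs2*, whose mean passed that of *Foxo1*. There the ranges of all neighbours from *Insr* down to *Foxo1* overlapped.

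**Figure D1:**
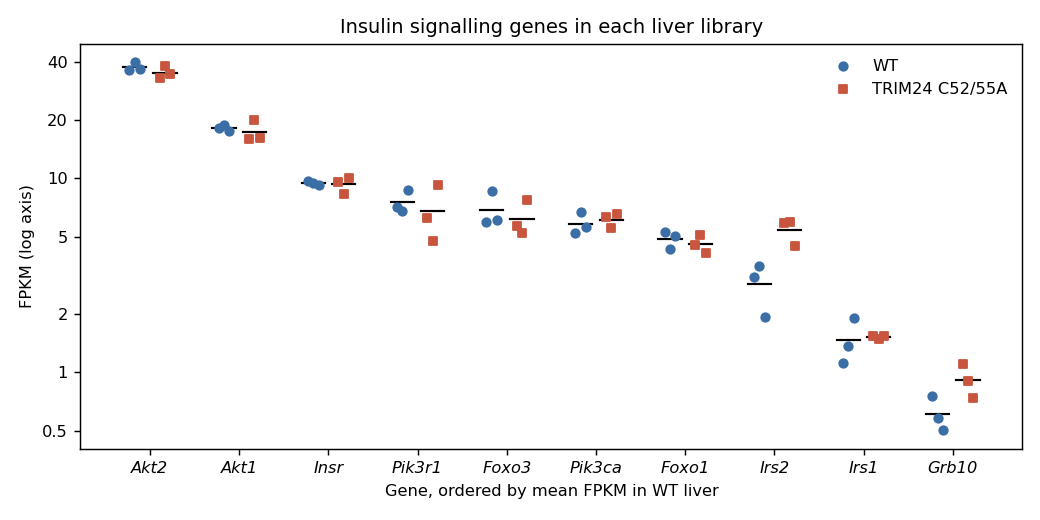
FPKM of the 10 insulin signalling genes in each library (log axis), with WT as circles, knockin (TRIM24 C52/55A) as squares and the group mean as a bar. *Irs2* is the gene whose groups do not overlap, with 1.92 to 3.52 FPKM in WT and 4.51 to 5.94 FPKM in knockin livers.

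Of the 10 genes, 1 passed an adjusted p-value under 0.05 (limma on log2(FPKM + 1), Benjamini-Hochberg adjustment over the 12225 genes tested), and this was *Irs2*, which rose. No member fell past the threshold. Of all genes tested, 7.72% passed it, 1.64% higher and 6.09% lower in the knockin liver, so that 1 call in 10 genes is near the share of calls among all genes, while rises were the rarer kind of call. *Irs2* was also the single member with an unadjusted p-value under 0.05. The log2 fold changes of the other 9 genes lay between -0.17 (*Pik3r1*) and 0.25 (*Grb10*), with adjusted p-values of 0.266 to 0.908, and their 95% confidence intervals reached from -0.63 to 0.52. Exact permutation tests on FPKM gave two-sided p-values of 0.2 to 0.9 for these 9. The median log2 fold change of the 10 genes was -0.05, beside -0.08 over all genes tested. The share of higher genes among all calls was 21.2%, and it was 38.1% with median-of-ratios scaling, 40.3% with quantile normalization of the libraries and 12.7% with TPM.

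**Figure D2:**
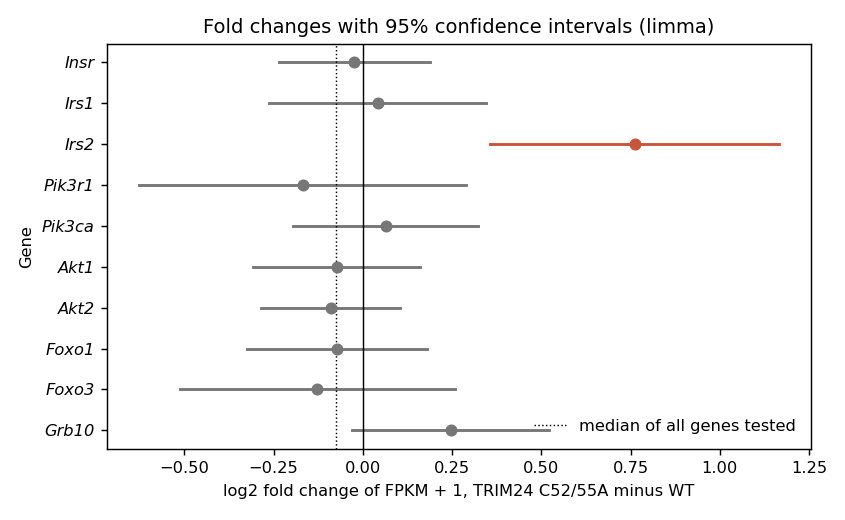
Log2 fold change of FPKM + 1 between knockin and WT livers (limma, n = 3 each) with 95% confidence intervals, and the median of all genes tested as a dotted line. The interval of *Irs2* runs from 0.36 to 1.17 and leaves out 0, and those of the other 9 genes include 0.

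*Insr* encodes the insulin receptor. Its locus is chromosome 8, 3122061 to 3279617, - strand (GRCm38, as are all coordinates here). Across WT mice 1, 2 and 3 it had 9.70, 9.46 and 9.26 FPKM, and across knockin mice 1, 2 and 3 it had 9.59, 8.36 and 10.01 FPKM. The WT values fell within the range of the knockin values. Its log2 fold change of -0.02 (SE 0.09, 95% confidence interval -0.24 to 0.19) did not pass the test (limma, adjusted p = 0.908). *Insr* was the steadiest of the 10 genes in WT liver, with a coefficient of variation of 2.37%, against 29.1% for *Irs2*, which varied most. The genes whose pattern over the 6 libraries was most like that of *Insr* were *Cdh2*, *Ide* and *Sntb1* (Pearson's r of 0.976, 0.976 and 0.967 over 6 libraries, among the 6560 genes whose mean reached 5 FPKM). *Ide* encodes the insulin-degrading enzyme. For these genes knockin replicate 2 was the lowest library, as it was for *Insr*.

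GRB10 is an adaptor that binds the activated receptor and restrains its signal. *Grb10* (chromosome 11, 11930508 to 12038683) had 0.755, 0.580 and 0.502 FPKM across the WT mice, and 1.10, 0.899 and 0.738 FPKM across the knockin mice. The mean was 1.49 times higher in the knockin liver, but the lowest of these libraries was below the highest WT library. The log2 fold change of 0.25 (SE 0.12, 95% confidence interval -0.03 to 0.52) did not pass the test (adjusted p = 0.266 from limma). This scale understates the change of genes as low as *Grb10*, and with a pseudocount of 0.1 in place of 1 the log2 fold change was 0.51, with an adjusted p-value of 0.273.

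*Irs2* encodes the substrate that, with IRS1, carries most of the insulin signal in hepatocytes. GENCODE M21 places it on chromosome 8, 10984681 to 11008458, - strand. Across WT mice 1, 2 and 3 it had 3.10, 3.52 and 1.92 FPKM, and across knockin mice 1, 2 and 3 it had 5.90, 5.94 and 4.51 FPKM. Every knockin library was above every WT library, as was so for 6.31% of all genes tested. The means were 2.85 ± 0.830 and 5.45 ± 0.814 FPKM (SD, n = 3 each), a 1.91-fold difference. On the log2(FPKM + 1) scale the difference was 0.76 (SE 0.18, adjusted p = 0.0373 from limma), and an exact permutation test on FPKM gave a two-sided p of 0.1, the smallest that 3 against 3 allow. The interval that the files give for *Irs2* runs on to 11054541 and takes in *9530052E02Rik*, an annotated transcript of the + strand. That transcript was listed in 2 of the 6 libraries, at 0.0501 and 0.0533 FPKM.

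*Irs1* encodes the other main substrate. Its locus is chromosome 1, 82233101 to 82291416, - strand. It had 1.12, 1.37 and 1.92 FPKM across the WT mice, and 1.54, 1.48 and 1.54 FPKM across the knockin mice, and the knockin values lay inside the WT range. Its log2 fold change of 0.04 (SE 0.13, 95% confidence interval -0.26 to 0.35) did not pass the test (limma, adjusted p = 0.891). Within the same interval the annotation places *Gm9747* on the + strand from 82233112 to 82235933, with 3.59 to 6.13 FPKM. Whether the counting used strand is not given in the sources used here, so reads of *Irs1* and *Gm9747* in this stretch may not have been told apart.

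The sequences just before the start sites of *Irs1* and *Irs2* are shown so that the 2 substrate genes can be compared where transcription begins, since *Irs2* passed the test and *Irs1* did not. The difference between their fold changes was tested as a ratio, given further on. Of the 10 members, 9 matched the RefSeq promoter table (GRCm38.p6), all but *Insr*, with 15 start sites between them. In the 250 bases before each start, both strands were searched for the insulin response motif of FoxO factors, CAAAACA, which reads TGTTTTG on the other strand. They were also searched for the FoxO motif GTAAACA, the palindromic E-box CACGTG, and the CREB half-site TGACG, which reads CGTCA on the other strand. Capitals mark the matches. The *Irs1* window is chr1:82291440-82291689 and the *Irs2* window chr8:11008930-11009179, both on the - strand and printed 5′ to 3′ along the gene.
Irs1: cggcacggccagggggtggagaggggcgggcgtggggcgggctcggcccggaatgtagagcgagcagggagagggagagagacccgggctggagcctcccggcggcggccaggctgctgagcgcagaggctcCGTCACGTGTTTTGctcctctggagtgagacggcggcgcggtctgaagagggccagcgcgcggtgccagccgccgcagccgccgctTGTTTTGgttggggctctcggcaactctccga
Irs2: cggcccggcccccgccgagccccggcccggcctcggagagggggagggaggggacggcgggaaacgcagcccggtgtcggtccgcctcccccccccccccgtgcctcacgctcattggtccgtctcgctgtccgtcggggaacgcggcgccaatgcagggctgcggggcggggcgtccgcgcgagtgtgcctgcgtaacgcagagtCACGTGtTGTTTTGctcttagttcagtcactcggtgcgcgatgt

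*Irs1* and *Irs2* were the 2 members with an E-box in this window, and the same 2 were the members with the insulin response motif. In *Irs2* the E-box covers positions 44 to 39 before the start and is followed by TGTTTTG (positions 37 to 31). In *Irs1* the E-box covers positions 115 to 110 and shares letters with TGTTTTG (positions 111 to 105) and with CGTCA (positions 118 to 114), and a second TGTTTTG covers positions 32 to 26. Of 32851 windows of the same length in the table, 5.56% held the insulin response motif, 6.02% the E-box and 0.295% both. The motif GTAAACA matched before 1 start of *Akt1*, and 3.17% of all windows held it. The half-site TGACG matched in 5 members, *Irs1*, *Pik3r1*, *Akt2*, *Foxo3* and *Grb10*, and in 17.8% of all windows. The *Irs2* window lies before the RefSeq start and upstream of the start in GENCODE M21. A match of letters does not show that a factor binds there.

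The rise of *Irs2* kept its direction in each of 16 other settings, with log2 fold changes of 0.57 to 0.94, and passed the threshold in 11 of them (adjusted p-values of 0.0228 to 0.135 from limma). It did not pass with no filter on low values (adjusted p = 0.110 over 21528 genes) or without WT replicate 1 (0.0852), WT replicate 3 (0.0946), knockin replicate 1 (0.135) or knockin replicate 2 (0.0721). WT replicate 3 had the lowest *Irs2*, and without it the log2 fold change was 0.57. Knockin replicate 2, with the highest *Adipoq*, *Plin1* and *Lep*, had 5.94 FPKM of *Irs2*, and knockin replicates 1 and 3, which list none of these 3 genes, had 5.90 and 4.51 FPKM. The summed lymphocyte markers and, through *Lyve1*, those of sinusoidal endothelium were lower in the knockin group. The part of adipocyte, lymphocyte or endothelial cells in the result was not tested. In bulk liver, fewer cells of a type and less RNA per cell cannot be told apart.

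**Figure D3:**
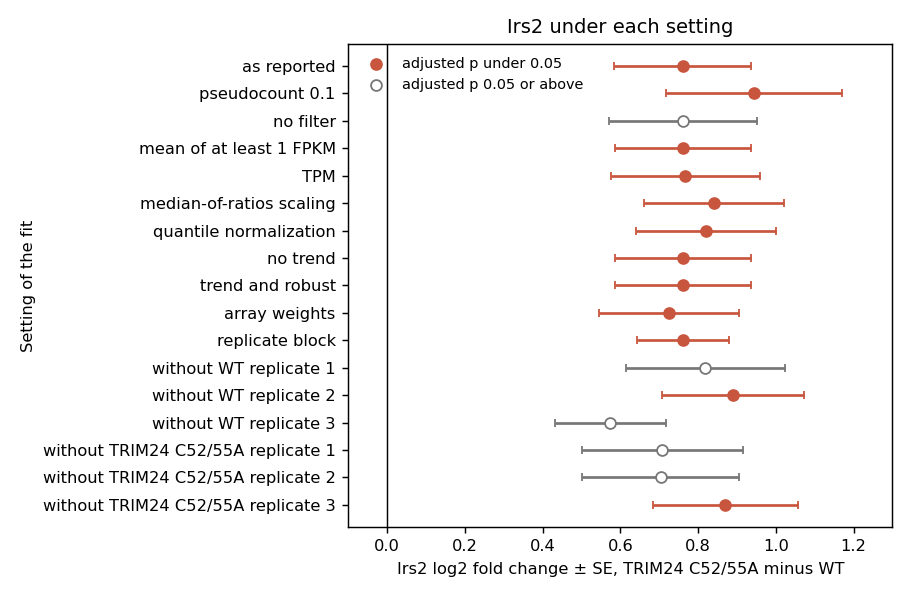
Log2 fold change of *Irs2* with its SE in the fit as reported and in 16 other settings, filled where the adjusted p-value was under 0.05. All 17 values lie above 0, between 0.57 and 0.94, and 5 of the 16 other settings have an adjusted p-value above the threshold.

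Among the 3 genes whose pattern was most like that of *Irs2* were *C6* and *Zfp219* (Pearson's r of 0.990 and 0.987 over 6 libraries, among the same 6560 genes). *C6*, which encodes a complement component, had 45.8, 49.8 and 27.3 FPKM across the WT mice, and 131, 138 and 92.0 FPKM across the knockin mice. As with *Irs2*, replicate 3 was the lowest library in both groups. The difference between the groups, which both genes share with *Irs2*, enters this r.

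The PI 3-kinase is represented by *Pik3r1*, which encodes the regulatory subunit p85α, and *Pik3ca*, which encodes the catalytic subunit p110α. *Pik3r1* (chromosome 13, 101680563 to 101768217) had 7.09, 6.78 and 8.70 FPKM across the WT mice, and 6.29, 4.75 and 9.26 FPKM across the knockin mice. *Pik3r1* varied most among the knockin livers, with a coefficient of variation of 33.9%, and both the lowest and the highest of the 6 values were in that group. Its log2 fold change was -0.17 (SE 0.20, 95% confidence interval -0.63 to 0.29, adjusted p = 0.671 from limma). *Pik3ca* (chromosome 3, 32397671 to 32468486) had 5.21, 6.72 and 5.60 FPKM in WT and 6.33, 5.56 and 6.53 FPKM in knockin libraries. The groups overlapped, with a log2 fold change of 0.06 (SE 0.11, 95% confidence interval -0.19 to 0.32, adjusted p = 0.785 from limma).

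PKB is encoded by *Akt1* and *Akt2*, of which *Akt2* is the form most tied to metabolic actions of insulin. *Akt2* (chromosome 7, 27591552 to 27640826) had 36.1, 39.7 and 36.7 FPKM across the WT mice, and 32.9, 38.1 and 34.6 FPKM across the knockin mice. *Akt1* (chromosome 12, 112653821 to 112674884) had 18.3, 18.9 and 17.7 FPKM in WT and 16.1, 20.1 and 16.1 FPKM in knockin libraries. For both genes knockin replicate 2 lay among the WT values or above them and the other 2 knockin libraries lay below all WT libraries. Log2 fold changes were -0.09 for *Akt2* (SE 0.08, 95% confidence interval -0.28 to 0.10, adjusted p = 0.583 from limma) and -0.07 for *Akt1* (SE 0.10, 95% confidence interval -0.31 to 0.16, adjusted p = 0.724). With median-of-ratios scaling the values were 0.01 and 0.02, so that the sign of both depended on the scaling.

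FOXO1 is the main FoxO factor of glucose output in liver, and FOXO3 shares many of its targets. *Foxo1* (chromosome 3, 52268336 to 52353221) had 5.31, 4.32 and 5.02 FPKM across the WT mice, and 4.56, 5.09 and 4.15 FPKM across the knockin mice. *Foxo3* (chromosome 10, 42181841 to 42276755) had 5.94, 8.58 and 6.10 FPKM in WT and 5.66, 5.23 and 7.73 FPKM in knockin libraries. Both groups overlapped for both genes, and each *Foxo3* group held 1 library well above the other 2, WT replicate 2 and knockin replicate 3. Log2 fold changes were -0.07 for *Foxo1* (SE 0.11, 95% confidence interval -0.32 to 0.18, adjusted p = 0.752 from limma) and -0.13 for *Foxo3* (SE 0.17, 95% confidence interval -0.51 to 0.26, adjusted p = 0.709). Both are regulated by phosphorylation and location, which FPKM do not measure.

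Ratios between related members within a library do not depend on how libraries are scaled. The *Irs2* to *Irs1* ratio was 2.76, 2.58 and 1.002 in the WT libraries and 3.84, 4.02 and 2.93 in the knockin libraries. Every knockin value was above every WT value, and the log2 ratio differed by 0.89 (pooled SD 0.60). An exact permutation test gave p = 0.1, which is the lowest that 3 against 3 allow. Without WT replicate 3, where the 2 transcripts had nearly equal FPKM, the difference was 0.42. *Gm9747* was highest in that library, at 6.13 FPKM, and its reads may not have been told apart from those of *Irs1*. The *Akt2* to *Akt1* ratio was the tightest of the 4, at 2.05 ± 0.0675 in WT and 2.03 ± 0.123 in knockin livers (SD, n = 3 each), and its log2 difference of -0.01 was smaller than its pooled SD of 0.07 (exact permutation test, p = 0.8). The *Foxo1* to *Foxo3* ratio was 0.740 ± 0.208 and 0.772 ± 0.220 (exact permutation test, p = 0.8), and the *Pik3r1* to *Pik3ca* ratio was 1.31 ± 0.277 and 1.09 ± 0.294 (exact permutation test, p = 0.4). The groups overlapped for these 3 ratios.

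**Figure D4:**
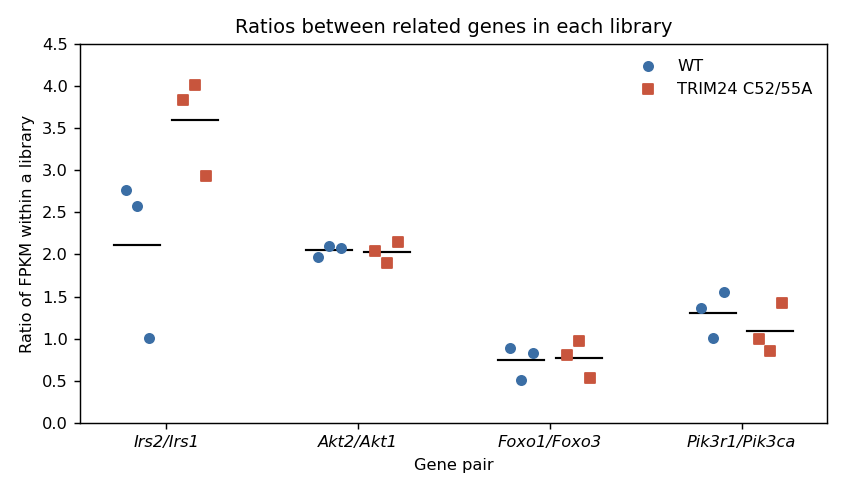
Ratio of the FPKM of related genes within each library, with WT as circles, knockin as squares and the group mean as a bar. The *Irs2* to *Irs1* ratio runs from 1.002 to 2.76 in WT and from 2.93 to 4.02 in knockin livers, and the groups of the other 3 ratios overlap.

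Around these members, 5 lists held 102 other genes of the pathway, of which 97 were tested. Of the 97, 4 fell and 0 rose past an adjusted p-value under 0.05 (limma), and at an unadjusted p-value under 0.05 there were 25 lower and 2 higher. Over all genes tested, 6.09% fell and 1.64% rose past the adjusted threshold, and 19.0% were lower and 4.63% higher at the unadjusted one, so that 4 falls in 97 genes is not above the share among all genes. Their median log2 fold change was -0.11, beside -0.08 over all genes tested. None of the 11 receptors and adaptors tested passed. The smallest p-values there belonged to *Grb2*, an adaptor of the Ras arm, with 24.6 ± 0.939 FPKM in WT and 20.8 ± 1.46 FPKM in knockin livers (SD, n = 3 each; log2 fold change -0.23, adjusted p = 0.134), and to *Sh2b1*, which enhances receptor signalling, with 12.2 ± 0.131 and 10.6 ± 0.121 FPKM (log2 fold change -0.19, adjusted p = 0.172). With quantile normalization their log2 fold changes were -0.11 and -0.099, and with median-of-ratios scaling -0.13 and -0.097. The median log2 fold change of the 11 was -0.06. At an unadjusted p-value under 0.05 there were 2, both lower.

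Of 18 PI3K subunits and kinases of the PKB arm, 1 fell (beside 6.09% of all genes), and the median log2 fold change was -0.13. At an unadjusted p-value under 0.05, 4 were lower and 0 higher. It was *Sgk2*, a kinase related to PKB that also acts downstream of PI 3-kinase. *Sgk2* had 28.4, 33.1 and 33.0 FPKM across the WT mice, and 21.9, 22.8 and 21.6 FPKM across the knockin mice. The groups did not overlap, as was so with lower knockin values for 22.5% of all genes tested. *Sgk2* had a log2 fold change of -0.49 (SE 0.09, adjusted p = 0.0147 from limma). It passed in 13 of 16 other settings, and did not without WT replicate 2 (adjusted p = 0.0576), WT replicate 3 (0.0694) or knockin replicate 1 (0.0615).

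Of 23 PKB targets and genes of the mTORC1 arm, 0 passed (4 at an unadjusted p-value under 0.05, 3 of them lower), with a median of -0.10. *Rptor*, the scaffold of mTORC1, had 8.01 ± 0.320 FPKM in WT and 6.53 ± 0.192 FPKM in knockin livers (log2 fold change -0.26, adjusted p = 0.104 from limma, and -0.17 with median-of-ratios scaling). *Deptor*, an mTOR inhibitor, had 15.9 ± 0.463 and 19.5 ± 2.40 FPKM (SD, n = 3 each; log2 fold change 0.27, adjusted p = 0.143).

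Of 22 inhibitors of insulin signalling, 1 fell (beside 6.09% of all genes), and the median was -0.14. At an unadjusted p-value under 0.05, 7 were lower and 0 higher, beside 19.0% and 4.63% of all genes. It was *Enpp1*, which encodes an ectoenzyme that can bind the insulin receptor and dampen its activity. *Enpp1* had 5.44, 5.90 and 6.44 FPKM across the WT mice, and 3.99, 4.20 and 3.49 FPKM across the knockin mice. The groups did not overlap, as was so with lower knockin values for 22.5% of all genes tested, and the log2 fold change was -0.50 (SE 0.10, adjusted p = 0.0262 from limma). Its call rested on the setting, since it passed in 8 of 16 others, with adjusted p-values of 0.0148 to 0.113. It did not pass with no filter, with median-of-ratios scaling, with the replicate block (0.0804), or without any 1 library other than knockin replicate 2.

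Of 23 FoxO and insulin target genes of liver, 2 fell (beside 6.09% of all genes), among them *Slc2a2*, and the median was -0.22. At an unadjusted p-value under 0.05, 9 were lower and 1 higher, beside 19.0% and 4.63% of all genes. Of the 23 log2 fold changes, 17 were below 0 and 6 above, while 65.5% were below 0 over all genes tested. The list joins FoxO targets with other insulin targets, which insulin need not move the same way. Its median and count of signs therefore give no direction of insulin action. Without knockin replicate 3, 2 genes of the list fell and 1 rose past the adjusted threshold. *Slc2a2* encodes GLUT2, the glucose transporter of the hepatocyte surface. It had 106, 105 and 105 FPKM in WT and 53.9, 78.4 and 80.7 FPKM in knockin libraries. Its log2 fold change was -0.58 (SE 0.14, adjusted p = 0.0467 from limma), which passed in 8 of 16 other settings. With the replicate block its adjusted p-value was 0.0629, and without WT replicate 1, 2 or 3 it was 0.127, 0.117 and 0.139. It did not pass either with no filter (0.120), no trend (0.0654), median-of-ratios scaling (0.0779) or quantile normalization (0.133, log2 fold change -0.42). The files' interval of *Slc2a2* spans 83.2 kb, against 33.5 kb in the annotation.

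*Irs2* is a FoxO target, and 4 other genes of the list were looked at beside it after their values had been seen, so that they do not stand for the list. *Bcl6*, which encodes a transcriptional repressor, had the same direction as *Irs2*, with a log2 fold change of 1.75 (SE 0.57, adjusted p = 0.107 from limma). *Igfbp1* encodes a binding protein for insulin-like growth factors. It had 68.6, 146 and 57.4 FPKM across the WT mice, and 37.2, 41.3 and 18.8 FPKM across the knockin mice. These groups did not overlap either, but the knockin values were the lower ones, as was so for 22.5% of all genes tested. The log2 fold change was -1.41 (SE 0.38) with an adjusted p-value of 0.0611 (limma), which passed the threshold in 3 of 16 other settings, among them the replicate block (0.0115). *G6pc* and *Pck1*, which encode enzymes of glucose output, had overlapping groups and log2 fold changes of -0.49 (SE 0.37, adjusted p = 0.488) and -0.24 (SE 0.26, adjusted p = 0.638). With 1 library left out, that of *G6pc* ran from -0.82 (without WT replicate 1) to -0.0972 (without knockin replicate 3), and that of *Pck1* from -0.56 to 0.059. *Pck1* is also an adipocyte gene and was highest in knockin replicate 2, at 1145 FPKM.

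**Figure D5:**
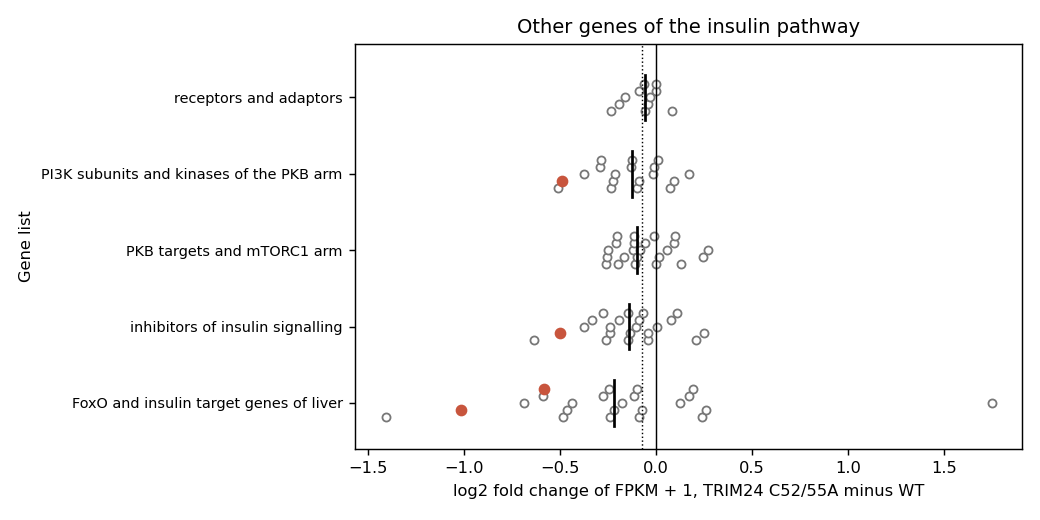
Log2 fold changes of the 97 other pathway genes tested, 1 point per gene in 5 lists, filled where the adjusted p-value was under 0.05, with the list's median as a bar and the median of all genes tested as a dotted line. The 4 filled genes, among them *Sgk2*, *Enpp1* and *Slc2a2*, lie below 0, and the open points farthest out are *Igfbp1* (-1.41) and *Bcl6* (1.75, adjusted p = 0.107), both in the list of FoxO and insulin target genes.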

How the data were processed

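Liver RNA of 3 WT and 3 TRIM24 C52/55A mice was measured in 6 libraries, which were grouped by their labels. The authors deposited 1 table of FPKM per library, which lists genes above 0. The submitters' processing notes name bcl2fastq, Salmon 0.14.0, DESeq2 1.30.0 and GRCm38, with no role for each, and the paper's text does not describe how FPKM were made. A gene missing from a table was set to 0. Gene intervals were compared with GENCODE M21 (GRCm38).

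Tests on log2(FPKM + 1) took the genes whose mean reached 0.5 FPKM and used limma 3.58.1 under R 4.3.3 (eBayes with a mean-variance trend, Benjamini-Hochberg adjustment over all genes tested), in a script tested on simulated data. Members and ratios also had an exact permutation test. Python 3.11.15 with scipy 1.17.1 did the permutation tests. FPKM keep no total count, so precision rests on the spread between mice. The text names all members, *Trim24*, the genes of each list past the threshold (up to 6, or the 2 with the smallest p-values where none passed), and the 3 genes most like *Insr* and *Irs2*. Of the genes this rule gives, 2 are not reported here. *Igfbp1*, *G6pc*, *Pck1*, *Bcl6*, *Lyve1*, the adipocyte genes and the single hepatocyte markers were named after their values were seen. The members, lists and tests were chosen with earlier results of these data known.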

Additional observations from a re-analysis of the deposited data

How the results depend on the processing

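Alternatives changed the pseudocount, the filter, the scaling, the variance model, the replicate block and the libraries used. The number of insulin signalling genes past the threshold was 1 in 11 of 16 and 0 with no filter, and 0 to 1 with 1 library left out. The number of all genes past it was 944, and 347 with no filter, 1555 with TPM, 578 with the replicate block and 296 to 1272 with 1 library left out. With TPM the lists held 2 genes past the threshold (PI3K subunits and kinases), 1 (PKB targets), 2 (inhibitors) and 6 (FoxO and insulin targets). With array weights they held 2 for PI3K subunits and kinases and 5 for FoxO and insulin targets. The inhibitors held 0 with no filter, median-of-ratios scaling or the replicate block. The FoxO and insulin targets held 0 with no filter, 1 with median-of-ratios scaling and 1 with no trend. With 1 library left out the counts ran from 0 to 2 (PI3K subunits and kinases), 0 to 1 (inhibitors) and 0 to 5 (FoxO and insulin targets). The receptors and adaptors held 0 throughout. For lists with so few calls, 1 gene changes the count, and with 1 library left out fewer mice enter the fit. The cause of the other changes was not tested. For single genes of the lists the alternatives were added after the data were seen.

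Among members not past the threshold, the sign of the log2 fold change turned with median-of-ratios scaling for *Insr* (0.069), *Akt1* (0.024), *Akt2* (0.010) and *Foxo1* (0.013), with quantile normalization for *Insr* (0.069), *Akt1* (0.053) and *Akt2* (0.057), and with array weights for *Insr* (0.0087). With 1 library left out the log2 fold change ran from -0.073 to 0.044 for *Insr*, -0.061 to 0.17 for *Irs1*, -0.39 to 0.028 for *Pik3r1*, -0.0022 to 0.15 for *Pik3ca*, -0.27 to 0.022 for *Foxo3*, -0.17 to -0.022 for *Akt1*, -0.15 to -0.044 for *Akt2* and -0.14 to -0.013 for *Foxo1*. The lowest values of *Akt1* and *Akt2* were those without TRIM24 C52/55A replicate 2 (adjusted p = 0.183 and 0.259 from limma). *Pck1*, a gene of the FoxO and insulin target list, ran from -0.56 to 0.059. Differences in the log2 ratios of related genes moved by less than their pooled SD. With 1 library left out they ran from -0.20 to 0.30 for *Foxo1* to *Foxo3* and from -0.055 to 0.032 for *Akt2* to *Akt1*, so that their sign turned. Those of *Pik3r1* to *Pik3ca* ran from -0.48 to -0.12 and those of *Irs2* to *Irs1* from 0.42 to 1.15. *Grb10* was not tested with the filter at a mean of 1 FPKM.

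Same-numbered mice of the 2 groups share only a number. Deviations of same-numbered mice from the group means correlated at -0.12 to 0.0027 across genes, and WT replicate 1 went best with TRIM24 C52/55A replicate 2. With the replicate block *Irs2* had a log2 fold change of 0.76 and an adjusted p-value of 0.0228 (limma), and *Enpp1* and *Slc2a2* were no longer past the threshold. Depth is unknown, so no counting error can be given for the lowest genes, *Grb10* and *Irs1*.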
